A study of Homo sapiens with 4 samples.

Results

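The genes described here are the 13 mRNAs that human mitochondrial DNA (mtDNA) encodes and 39 nuclear genes whose products copy, transcribe, process or translate it. They were chosen by symbol from a list of 52 names. Every name matched 1 of the 62893 gene rows of the table, and all 52 were among the 16889 genes with enough counts to test. The libraries are of T24, an established line of human bladder carcinoma, and hold poly(A) RNA. The cells received control siRNA (siControl, 2 libraries) or siRNA against NSUN2 (siNSUN2, 2 libraries). NSUN2 is a methyltransferase that places 5-methylcytosine on tRNAs and other RNAs. The labels name neither the siRNA sequences, the time after transfection nor separate cultures, so p-values reflect how far these libraries scatter, and that scatter may be technical only. The labels call every library T24 and state no other treatment.

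Mitochondrial DNA is a small circle that is transcribed from both strands into long precursors. Enzymes cut these apart, mostly at the tRNAs that lie between the coding genes, and a poly(A) tail is then added to most mRNAs. The mRNAs encode core subunits of complexes I, III, IV and V of oxidative phosphorylation, the pathway that makes ATP by respiration. Every protein that acts on mtDNA or its transcripts is made from nuclear genes and imported.

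Library totals ran from 33633249 to 215936965 counts, and levels below are CPM, the library-size-normalised count, with sizes scaled by the trimmed mean of M values (TMM). NSUN2 stood at 281 and 284 CPM in siControl and at 29.6 and 30.1 CPM in siNSUN2. Of the epithelial markers, KRT7, KRT8 and KRT18 averaged at least 1 CPM over the libraries, and KRT19, EPCAM and CDH1 were not; the sum was 1182 to 1253 CPM in siControl and 1109 to 1199.7 CPM in siNSUN2. The mesenchymal markers VIM, CDH2 and FN1 summed to 1507 to 1535 CPM in siControl and 2489 to 2502 CPM in siNSUN2. Of the markers of urothelial differentiation only PPARG averaged at least 1 CPM, while UPK1A, UPK2, UPK3A and GATA3 did not; their sum was 14.4 to 15.2 and 22.9 to 23.8 CPM. None of 4 leukocyte, 3 erythroid and 2 liver markers averaged 1 CPM (HBB reached 2.66 CPM in siNSUN2 replicate 2), and VWF and COL1A1 were the only endothelial and fibroblast markers that did. The endothelial sum was 0.395 to 0.635 CPM in siControl and 2.37 to 10.6 CPM in siNSUN2, and the fibroblast sum 0.847 to 2.00 and 2.97 to 3.56 CPM. Their part in the results below was not tested. Of all genes tested, 4573 were higher and 4307 lower in siNSUN2 at an adjusted p under 0.05, with a median log2 fold change of 0.03.

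The annotated ends of the mitochondrial mRNAs are shown because a poly(A) tail can complete the stop codon there. The reference entries cover the coding region, so an annotated end need not be the end of the mRNA. In 6 of the 13 the encoded sequence stops 1 or 2 bases into the stop codon, and the tail supplies the rest. The last 20 bases are given 5′ to 3′ as DNA, from GENCODE release 29 (GRCh38), for an incomplete end in MT-ND1 and MT-CYB, for the annotated AGA and AGG ends of MT-CO1 and MT-ND6, and for a regular stop codon in MT-ND5. Capitals mark the bases of the stop codon that mtDNA itself encodes.
MT-ND1: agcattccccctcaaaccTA
MT-CYB: caaaatactcaaatgggccT
MT-CO1: ccgtatacataaaatctAGA
MT-ND6: agattgctcgggggaatAGG
MT-ND5: ccctactcctaatcacaTAA

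Some coding regions overlap and lie on 1 shared mRNA, so that a read within the overlap can be counted for neither or either gene. The coding regions of MT-ATP8 and MT-ATP6 share 46 bases, and those of MT-ND4L and MT-ND4 share 7. The junction of the last pair is shown by the end of the first and the start of the next, with the shared bases in capitals.
MT-ND4L: aacctaaacctactccaATGCTAA
MT-ND4: ATGCTAAaactaatcgtcccaaca

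Of the 52 genes, 5 were called higher in siNSUN2 and 35 lower, and 12 did not pass the threshold (edgeR quasi-likelihood test, adjusted p under 0.05 over all genes tested). Among all genes tested 27.1% were called higher and 25.5% lower, 52.6% in all. The median log2 fold change of the 52 was −0.32. The CPM values of the 2 groups did not overlap in 46 genes, 7 higher and 39 lower in siNSUN2, where 74.6% of all genes tested did not overlap, 38.6% higher and 36.0% lower. With 2 libraries in each group a permutation test of a single gene cannot go below p = 0.333.

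The mitochondrial mRNAs moved unequally. MT-ND1 rose, 7 fell (MT-ND6, MT-ND5, MT-ND3, MT-CO1, MT-CO2, MT-CO3 and MT-CYB), and 5 did not pass the threshold (MT-ND2, MT-ND4, MT-ND4L, MT-ATP6 and MT-ATP8). Their median log2 fold change was −0.30, and with offsets for GC content and transcript length it was −0.15 with 3 called higher and 5 lower. Over all genes tested these offsets gave 20.5% higher and 24.9% lower. Fewer cells with a transcript, fewer mitochondria per cell, fewer copies of mtDNA, less RNA per copy and shorter poly(A) tails cannot be told apart in these libraries. The plot of levels shows all 13 in every library.

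**Figure D1:**
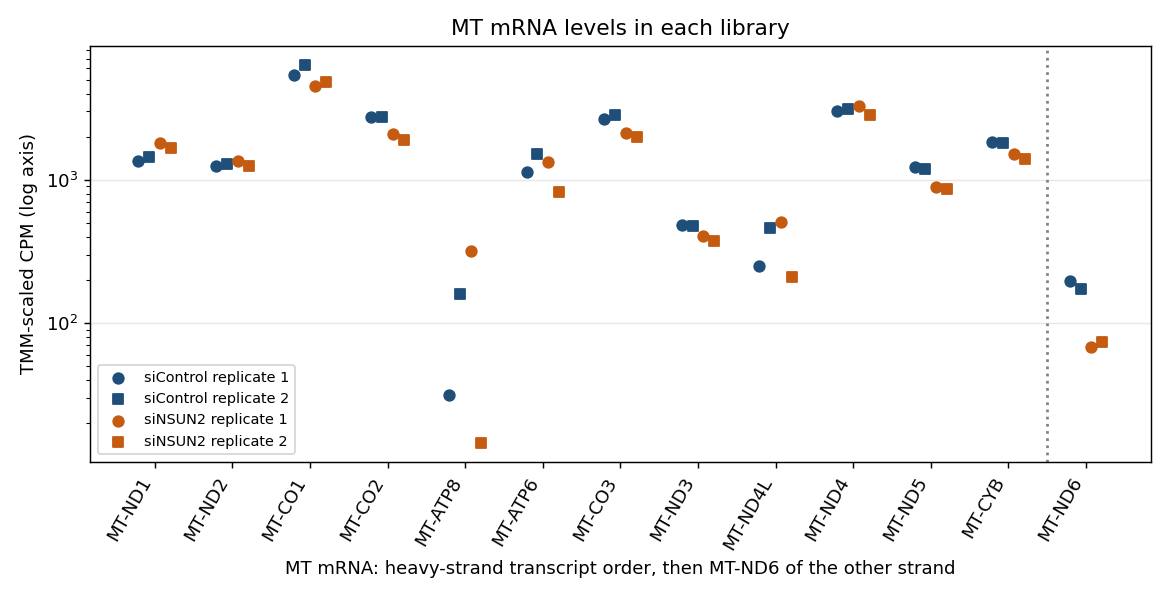
TMM-scaled CPM on a log axis for the 13 mitochondrial mRNAs in each library, in the order of the heavy-strand transcript, with MT-ND6 of the other strand after the dotted line. MT-ND6 and MT-ND5 lie lower in both siNSUN2 libraries and MT-ND1 higher, while the points of MT-ATP8 spread from 14.6 to 318 CPM.

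Complex I, the NADH dehydrogenase that starts the respiratory chain, takes 7 of its subunits from mtDNA, of which 1 mRNA rose, 3 fell and 3 did not pass. MT-ND6, the only mRNA on the strand opposite the rest, stood at 196 and 172 CPM in siControl and at 67.8 and 74.0 CPM in siNSUN2. Both siNSUN2 libraries lay well below the lower siControl library. The log2 fold change was −1.38 (adjusted p = 7.39e-05, SE 0.0821), the lowest of the 52 genes, and it ran from −1.49 to −1.20 over the alternatives tried. Mature MT-ND6 mRNA is known to carry little or no poly(A), unlike the others. The kit marks strand, but which strand setting the counting used is not given in the sources used here. Counts of MT-ND6 and of heavy-strand RNA that runs across it therefore cannot be told apart.

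MT-ND1, the membrane-arm subunit next to the quinone site, had 1349 and 1434 CPM in siControl against 1798 and 1656 CPM in siNSUN2. Its groups did not overlap, and the log2 fold change was 0.31 (adjusted p = 8.9e-04, SE 0.0525). Without siControl replicate 1 it was 0.20 with an adjusted p of 0.0015. As a share of all mitochondrial mRNA counts, MT-ND1 made up 6.27% and 6.10% in siControl and 8.91% and 9.11% in siNSUN2.

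MT-ND5, a proton-pumping subunit, stood at 1219 and 1196 CPM in siControl and 893 and 857 CPM in siNSUN2. The difference was −0.46 on the log2 scale (adjusted p = 1.26e-05, SE 0.0412). MT-ND3, a small subunit of the hinge between the arms, had 484 and 476 CPM in siControl and 406 and 374 CPM in siNSUN2. Its log2 fold change of −0.30 (adjusted p = 5.05e-04, SE 0.0468) became −0.08 with an adjusted p of 0.105 under the GC and length offsets. All siNSUN2 values of MT-ND5 and MT-ND3 lay below all siControl values.

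The other mRNAs of complex I did not pass. MT-ND2, a further proton-pumping subunit, ranged over 1244 and 1279 CPM in siControl and 1350.1 and 1248 CPM in siNSUN2, with overlap between the groups and a log2 fold change of 0.04 (adjusted p = 0.509, SE 0.0479). MT-ND4, encoded beside MT-ND4L, had 3032 and 3129 CPM in siControl and 3282 and 2835 CPM in siNSUN2, also with overlap (log2 fold change −0.01, SE 0.0733, adjusted p = 0.927). With GC and length offsets MT-ND2 gave 0.24 (adjusted p = 1.5e-04) and MT-ND4 gave 0.16 (adjusted p = 0.0138), so both then passed as higher. Single libraries also moved them past the threshold, MT-ND2 without siNSUN2 replicate 2 (0.11, adjusted p = 0.0444) and MT-ND4 without siNSUN2 replicate 1 (−0.12, adjusted p = 0.0460). MT-ND4L had 251 and 461 CPM in siControl and 504 and 209.8 CPM in siNSUN2, and its values differed more within the groups than between them.

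Complex IV, cytochrome c oxidase, takes its catalytic core from MT-CO1, MT-CO2 and MT-CO3, and all 3 mRNAs fell. MT-CO2, which receives electrons from cytochrome c, had 2738 and 2733 CPM in siControl and 2076 and 1880.2 CPM in siNSUN2, a log2 fold change of −0.47 (adjusted p = 6.1e-05, SE 0.0525). MT-CO3, a core subunit without metal centres, had 2660.0 and 2812 CPM in siControl and 2124 and 1978 CPM in siNSUN2, a log2 fold change of −0.42 (adjusted p = 9.74e-05, SE 0.0505). For both genes the siNSUN2 libraries lay clearly below the siControl libraries. MT-CO1, which holds the site where oxygen is reduced, had 5362 and 6344 CPM in siControl and 4523 and 4829 CPM in siNSUN2. Its groups did not overlap but its siControl libraries stood apart, and the log2 fold change was −0.32 (adjusted p = 0.0394, SE 0.093). It missed the threshold under 7 alternatives, among them without siNSUN2 replicate 1 (adjusted p = 0.312), without siNSUN2 replicate 2 (adjusted p = 0.321) and with GC and length offsets (−0.20, adjusted p = 0.356).

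MT-CYB, the cytochrome b of complex III and its only mtDNA-encoded subunit, had 1827 and 1797 CPM in siControl and 1501 and 1396 CPM in siNSUN2. Its groups did not overlap, and the log2 fold change was −0.32 (adjusted p = 3.01e-04, SE 0.0465). The mRNAs of complex V, the ATP synthase, did not pass. MT-ATP6, part of the proton channel, had 1135 and 1525 CPM in siControl and 1341 and 826 CPM in siNSUN2 (log2 fold change −0.30, SE 0.393, adjusted p = 0.63). MT-ATP8, a short subunit encoded on the same mRNA, had 31.5 and 160.0 CPM in siControl and 318 and 14.6 CPM in siNSUN2 (log2 fold change 0.79, SE 2.09, adjusted p = 0.812). The groups overlapped in both genes, and siNSUN2 held both the highest and the lowest MT-ATP8 library.

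The widest differences between replicates were in genes that overlap a neighbour. MT-ATP8 was 5.08 times as high in siControl replicate 2 as in replicate 1, and 21.7 times as high in siNSUN2 replicate 1 as in replicate 2. The same folds were 1.83 and 2.40 for MT-ND4L and 1.34 and 1.62 for MT-ATP6, and the remaining 10 mRNAs lay between 0.875 and 1.18. Among these 10 was MT-ND4, at 1.03 and 1.16, although it shares 7 bases with MT-ND4L. For MT-ATP8, MT-ND4L and MT-ATP6 the higher library of each group was the more deeply sequenced one. MT-ATP8 and MT-ND4L, of 207 and 297 bases, also have the shortest coding regions, and each lies on an mRNA shared with its neighbour. Among 29 nuclear genes with transcripts of up to 300 bases the median difference of the deeper library over the shallower was −0.37 in siControl and −0.27 in siNSUN2 on the log2 scale. These nuclear lengths are of whole transcripts, so they do not compare like for like with coding regions on shared mRNAs. The cause of the replicate differences was not tested.

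**Figure D2:**
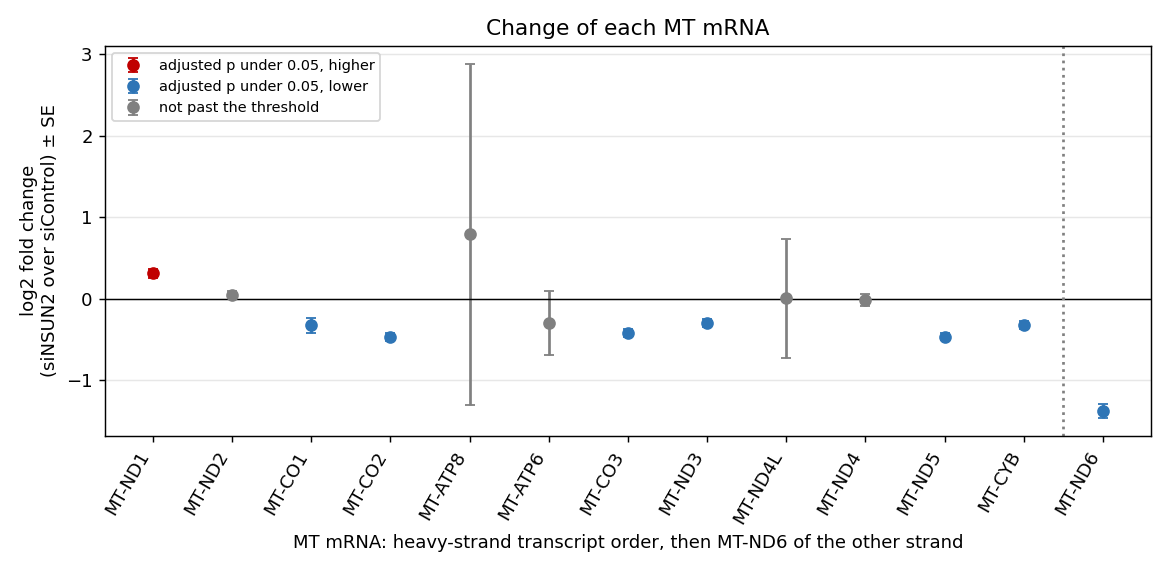
Log2 fold change (siNSUN2 over siControl) of each mitochondrial mRNA with its standard error, in the same order, coloured by the edgeR call at an adjusted p of 0.05. MT-ND6 lies lowest at −1.38, MT-ND1 is the only called rise at 0.31, and MT-ATP8 and MT-ND4L have the widest bars, with standard errors of 2.09 and 0.732.

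Per kilobase of coding length, the order of levels in siControl began with MT-CO2 at 3999 CPM per kb, MT-CO1 at 3796 and MT-CO3 at 3490.0. In siNSUN2 the means of these mRNAs were 2892 CPM per kb for MT-CO2, 3032 for MT-CO1 and 2616 for MT-CO3. MT-ND4 followed at 2235 CPM per kb in siControl and 2219.7 in siNSUN2, and MT-ND1 moved from 1456 to 1806 CPM per kb. By group mean MT-ND6 was the lowest per length in both groups, at 351 CPM per kb in siControl and 135 in siNSUN2. MT-ATP8, of 207 bases, lay below MT-ND6 (525 bases) per length in siControl replicate 1, at 31.5 against 196 CPM. It also lay below MT-ND6 per length in siNSUN2 replicate 2, at 14.6 against 74.0 CPM. By mean, the mRNAs of complex IV led the order in both groups and MT-ND6 closed it. By the form of their ends, 0 of the 7 mRNAs with a complete stop codon rose and 4 fell, and 1 of the 6 with an incomplete one rose and 3 fell. Of all genes tested 27.1% were called higher and 25.5% lower. MT-ATP8, MT-ATP6 and MT-ND4L, which varied most between replicates, are among those with complete ends. With GC and length offsets 0 of the 7 rose and 3 fell, and 3 of the 6 rose and 2 fell. All genes tested then gave 20.5% higher and 24.9% lower.

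Added together, the 13 mRNAs took 2.16% of all gene counts in siControl replicate 1 (95% exact binomial interval 2.16% to 2.17%) and 2.32% in replicate 2 (2.31% to 2.32%). They took 2.00% in siNSUN2 replicate 1 (1.998% to 2.004%) and 1.85% in replicate 2 (1.846% to 1.855%), where these intervals cover counting error only. The group means were 2.24% ± 0.109 (SD, n = 2) and 1.93% ± 0.106 (SD, n = 2), and the groups did not overlap. The summed level of the 39 nuclear genes was 3012 and 3018 CPM in siControl and 2446 and 2362 CPM in siNSUN2, also without overlap. The ratio of mitochondrial mRNA counts to nuclear member counts was 7.15 and 7.79 in siControl and 8.25 and 7.70 in siNSUN2. The ratios overlapped between the groups.

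The nuclear genome holds copies of mtDNA that can share reads with it. Counts of the copy MTND2P28 equalled 6.41% to 11.1% of those of MT-ND2, and counts of MTATP6P1 equalled 8.05% to 14.6% of those of MT-ATP6. With the counts of the copies added, the log2 fold change was 0.06 for MT-ND2 (adjusted p = 0.465) and −0.31 for MT-ATP6 (adjusted p = 0.649). No call among the 52 genes changed.

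Of the 39 nuclear genes, 4 rose (FASTK, POLRMT, FASTKD5 and TBRG4), 28 fell and 7 did not pass, with a median log2 fold change of −0.32. Among all genes tested 27.1% were called higher and 25.5% lower. The counts of the role groups below are to be read against these shares. With GC and length offsets all genes tested gave 20.5% higher and 24.9% lower. Of the 39, 2 were then called higher and 25 lower, and the median was −0.27. The number of rises was also 2 without siControl replicate 1 or without siNSUN2 replicate 1, where FASTKD5 and TBRG4 no longer passed. Their adjusted p was 0.236 and 0.134 without the former library and 0.125 and 0.165 without the latter, and TBRG4 also missed the threshold without siControl replicate 2 (adjusted p = 0.118).

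In the group that transcribes and compacts mtDNA, 1 of 9 genes rose and 6 fell, with a median log2 fold change of −0.37. TFAM, the protein that bends promoters and packs mtDNA into nucleoids, had 244 and 246 CPM in siControl and 181 and 179.6 CPM in siNSUN2, a log2 fold change of −0.44 (adjusted p = 9.27e-06, SE 0.0376). TFB2M, which opens the promoter for the polymerase, had 41.9 and 41.8 CPM in siControl and 30.2 and 27.2 CPM in siNSUN2, a log2 fold change of −0.54 (adjusted p = 5.49e-05, SE 0.0601). Both transcription factors were lower in each siNSUN2 library than in either siControl library. POLRMT, the RNA polymerase itself, had 28.3 and 31.8 CPM in siControl and 43.7 and 47.1 CPM in siNSUN2, a log2 fold change of 0.59 (adjusted p = 1.42e-04, SE 0.0683). POLRMT was thus higher in both siNSUN2 libraries, but with GC and length offsets its log2 fold change was −0.17 with an adjusted p of 0.122. MTERF3, a mitochondrial termination factor family member that acts on transcription and ribosome assembly, had 54.6 and 52.3 CPM in siControl and 36.7 and 37.8 CPM in siNSUN2, a log2 fold change of −0.52 (adjusted p = 1.51e-05, SE 0.0475). MTERF2, of the same family, had 13.9 and 13.3 CPM in siControl and 9.03 and 8.59 CPM in siNSUN2, a log2 fold change of −0.62 (adjusted p = 1.56e-04, SE 0.0812). Both genes had lower values in siNSUN2 without overlap. TFB1M, which dimethylates the small ribosomal RNA, fell by 0.32 on the log2 scale, and TEFM, the elongation factor, fell by 0.17, and both missed the threshold with GC and length offsets. TEFM also missed it without siControl replicate 2 (adjusted p = 0.106), siNSUN2 replicate 1 (0.137) or siNSUN2 replicate 2 (0.0712). MTERF1 and MTERF4 did not pass, with log2 fold changes of −0.37 and −0.12. MTERF1 passed as lower under 11 of 18 alternatives, among them DESeq2 (−0.39, adjusted p = 0.0121) and leaving out siControl replicate 1 (−0.45, adjusted p = 0.0365) or siNSUN2 replicate 1 (−0.58, adjusted p = 0.00169). MTERF4 passed without siControl replicate 1 (−0.21, adjusted p = 0.0217). With the offsets the group had 0 called higher and 4 lower.

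Of the 6 genes that copy mtDNA or set its topology, 5 fell and POLG did not pass, with a median log2 fold change of −0.29. POLG2, the accessory subunit that holds the mtDNA polymerase on its template, had 25.3 and 24.4 CPM in siControl and 12.8 and 13.8 CPM in siNSUN2, a log2 fold change of −0.90 (adjusted p = 3.98e-06, SE 0.0666). SSBP1, the single-stranded DNA binding protein of the replication fork, had 243.5 and 254 CPM in siControl and at 161 and 159 CPM in siNSUN2, a log2 fold change of −0.64 (adjusted p = 1.62e-06, SE 0.0406). The siNSUN2 libraries of both genes were close together and far below siControl. TWNK, the Twinkle helicase, had 39.7 and 41.0 CPM in siControl and 30.9 and 32.1 CPM in siNSUN2, a log2 fold change of −0.36 (adjusted p = 2.43e-04, SE 0.0502). TOP1MT, a topoisomerase that relaxes mtDNA, had 32.9 and 32.1 CPM in siControl and 28.3 and 27.6 CPM in siNSUN2, a log2 fold change of −0.22 (adjusted p = 0.00659, SE 0.0528). In both genes the groups did not overlap. With GC and length offsets the log2 fold changes were −0.53 for TWNK, −0.53 for TOP1MT and −0.38 for SSBP1, and all remained called. MGME1, an exonuclease that trims DNA ends, had 99.8 and 99.1 CPM in siControl and 89.9 and 89.1 CPM in siNSUN2, a log2 fold change of −0.15 (adjusted p = 0.00987, SE 0.0397) that missed the threshold with GC and length offsets at −0.02. POLG, the catalytic subunit, had a log2 fold change of 0.08 (adjusted p = 0.194, SE 0.0461), and with GC and length offsets it was −0.36 and passed (adjusted p = 1.1e-04).

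The largest group, 15 genes that process, stabilise or degrade mitochondrial RNA, held 3 rises and 10 falls, with a median log2 fold change of −0.30. FASTK, the founding member of a family of RNA-binding proteins and known to be needed for MT-ND6 mRNA, had 38.2 and 40.2 CPM in siControl and 91.8 and 88.2 CPM in siNSUN2. Its siNSUN2 libraries stood far above the siControl libraries, and the log2 fold change was 1.20 (adjusted p = 1.26e-07, SE 0.0467), or 0.63 with GC and length offsets. FASTKD1, of the same family, had 98.0 and 95.7 CPM in siControl and 53.3 and 56.5 CPM in siNSUN2, a log2 fold change of −0.82 (adjusted p = 7.38e-07, SE 0.0456). FASTKD3, another member, had 25.9 and 25.5 CPM in siControl and 14.3 and 13.6 CPM in siNSUN2, a log2 fold change of −0.88 (adjusted p = 2.99e-06, SE 0.0625). The family therefore split, with FASTK higher and FASTKD1 and FASTKD3 lower in each siNSUN2 library. FASTKD2, which binds the large ribosomal RNA, fell by 0.19 on the log2 scale. With GC and length offsets its log2 fold change turned to 0.04 and was not called (adjusted p = 0.516). FASTKD5, which acts on mRNA ends that no tRNA flanks, rose by 0.18, and TBRG4, also named FASTKD4, rose by 0.15. With the offsets TBRG4 was −0.23 and was called lower (adjusted p = 0.0025).

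PNPT1, the polynucleotide phosphorylase of the mitochondrial RNA degradosome, had 117 and 115 CPM in siControl and 64.5 and 66.5 CPM in siNSUN2, a log2 fold change of −0.83 (adjusted p = 4.35e-07, SE 0.0416). LRPPRC, which with SLIRP stabilises mitochondrial mRNAs and promotes their polyadenylation, had 338 and 329 CPM in siControl and 228 and 218 CPM in siNSUN2, a log2 fold change of −0.58 (adjusted p = 3.17e-06, SE 0.0412). Both genes were lower in siNSUN2 without overlap. SLIRP, the partner of LRPPRC, fell by 0.44 on the log2 scale, and MTPAP, the poly(A) polymerase that adds the tails, fell by 0.59. SUPV3L1, the helicase of the degradosome, fell by 0.12 and was near 0 with the offsets. It missed the threshold without siControl replicate 2 (adjusted p = 0.0662), siNSUN2 replicate 1 (0.0510) or siNSUN2 replicate 2 (0.160). GRSF1, which marks the granules where new RNA is processed, fell by 0.30, and PTCD2, a pentatricopeptide protein linked to MT-CYB processing, fell by 0.96. ELAC2, the RNase Z that cuts the 3′ ends of tRNAs, and PTCD1, a pentatricopeptide protein, did not pass, with log2 fold changes of −0.01 and −0.07. With GC and length offsets both passed as lower, at −0.27 and −0.45.

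Of 9 translation factors 7 fell and 2 did not pass, with a median log2 fold change of −0.32. PTCD3, a pentatricopeptide protein of the small ribosomal subunit, had 146 and 149.6 CPM in siControl and 102 and 101 CPM in siNSUN2, a log2 fold change of −0.55 (adjusted p = 3.76e-06, SE 0.0401). GFM2, a ribosome recycling factor, had 69.4 and 68.0 CPM in siControl and 48.8 and 49.4 CPM in siNSUN2, a log2 fold change of −0.48 (adjusted p = 1.02e-05, SE 0.0417). These genes had the lowest adjusted p-values of the group, and the siNSUN2 libraries of each agreed closely. MTIF2, the initiation factor that brings the first tRNA, had 82.2 and 81.4 CPM in siControl and 64.3 and 60.7 CPM in siNSUN2, a log2 fold change of −0.39 (adjusted p = 7.15e-05, SE 0.0447). GFM1, the elongation factor that moves the ribosome, had 102 and 103 CPM in siControl and 86.4 and 82.8 CPM in siNSUN2, a log2 fold change of −0.28 (adjusted p = 4.34e-04, SE 0.0422). MTRF1, a release factor tied to the AGA and AGG ends shown above, had 20.2 and 18.4 CPM in siControl and 15.9 CPM in each siNSUN2 library, a log2 fold change of −0.28 (adjusted p = 0.00848, SE 0.0704). GFM1 and MTRF1 missed the threshold with GC and length offsets, at −0.09 and −0.01, and MTRF1 also without siNSUN2 replicate 1 (adjusted p = 0.0557). The elongation factors TUFM and TSFM fell by 0.32 and 0.58, and TSFM missed the threshold without siNSUN2 replicate 2 (adjusted p = 0.0534). TACO1, the activator of MT-CO1 translation, and the initiation factor MTIF3 did not pass, with log2 fold changes of 0.12 and −0.15. MTIF3 passed as lower without siControl replicate 1 (−0.24, adjusted p = 0.0171) and with the size factors of DESeq2 (adjusted p = 0.0462), and TACO1 as higher with library totals for scaling (adjusted p = 0.0461).

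**Figure D3:**
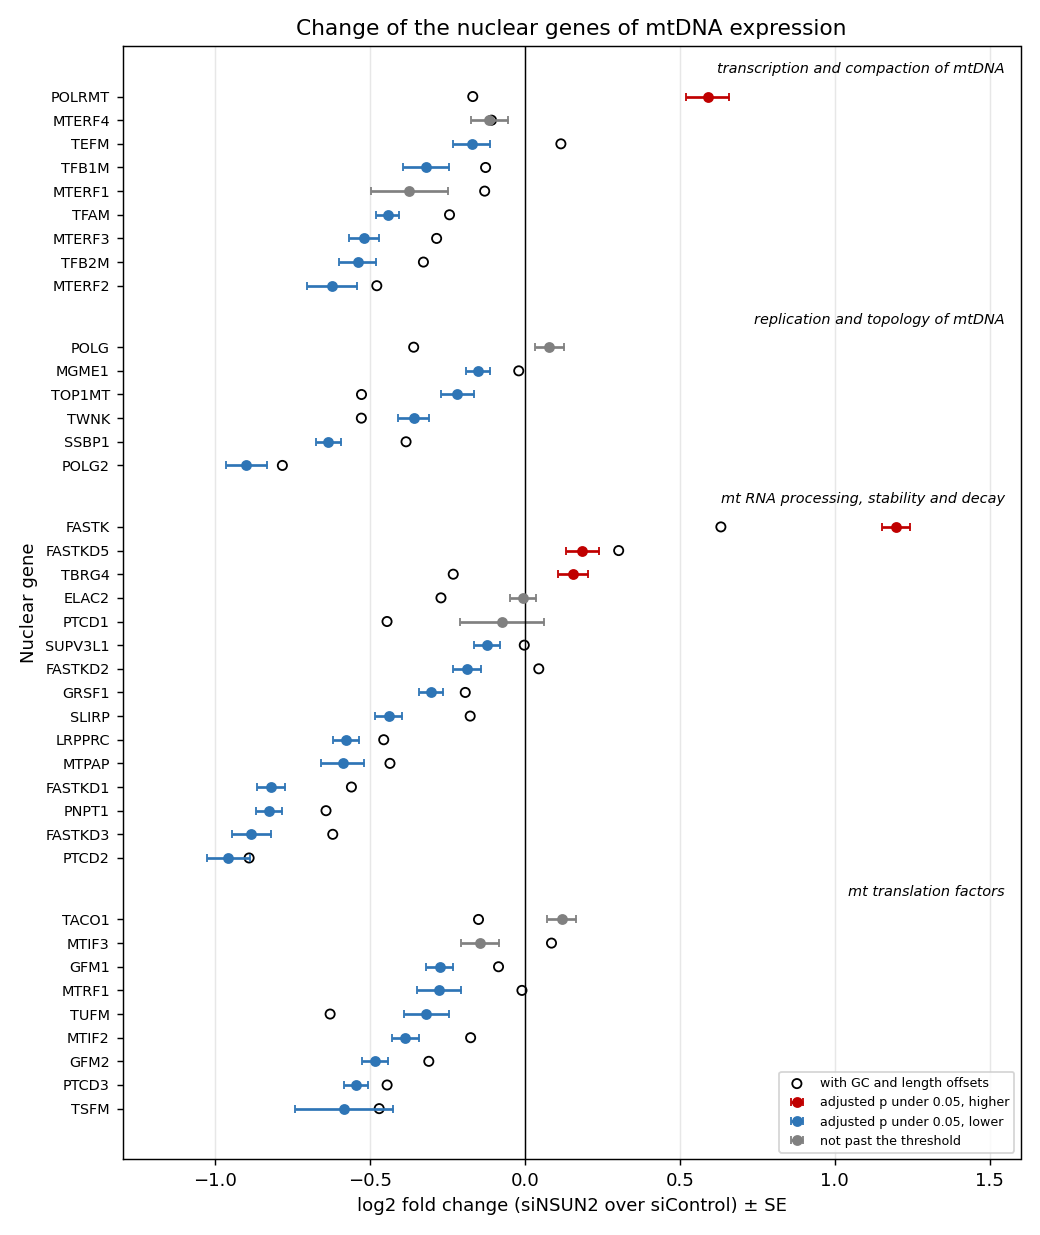
Log2 fold change (siNSUN2 over siControl) with its standard error for the 39 nuclear genes by role, with open circles for the fit with GC content and transcript length offsets. FASTK is highest at 1.20 and PTCD2 lowest at −0.96. The open circles of POLRMT, TBRG4, TEFM, FASTKD2, POLG, TACO1 and MTIF3 lie on the other side of 0 from their filled points.

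GC content moved with the calls. The 4 nuclear genes called higher had transcripts of 45.5% to 66.3% GC with a median of 61.2%, and the 28 called lower had 37.1% to 57.7% with a median of 41.9%. The 7 that did not pass had a median of 56.1%. The plot of change by GC content shows TWNK, TOP1MT and TUFM as GC-rich genes that were lower. FASTKD5, at 45.5% GC, was the lowest in GC of the 4 called higher. The part of GC content in the calls was tested only through the offsets given above.

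**Figure D4:**
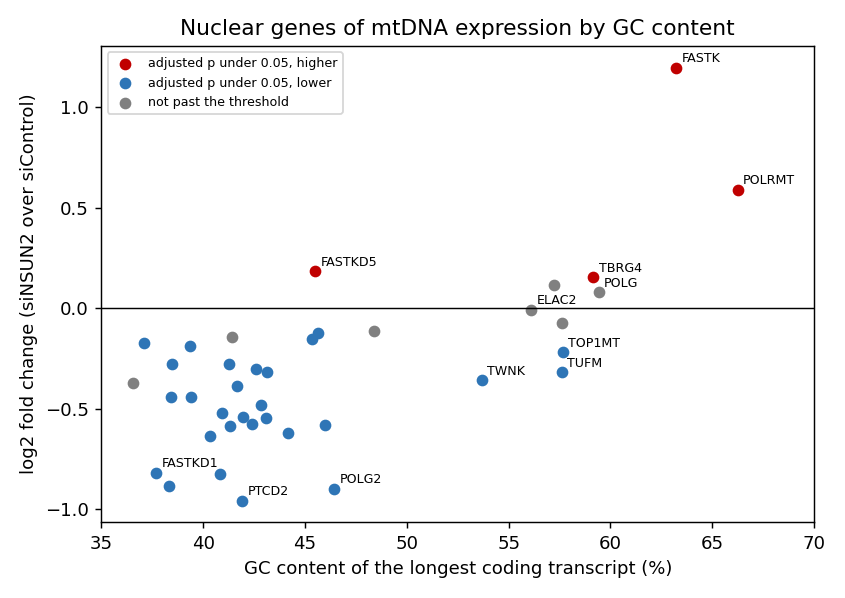
Log2 fold change (siNSUN2 over siControl) of the 39 nuclear genes against the GC content of the longest coding transcript, coloured by the edgeR call at an adjusted p of 0.05. FASTK and POLRMT lie at the GC-rich end above 0, and most of the 28 genes called lower lie at the GC-poor end.

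A second list held 66 further genes of mtDNA expression, of which 65 had a row and 64 were tested. Of these 13 rose, 23 fell and 28 did not pass, where 27.1% of all genes tested were called higher and 25.5% lower. The median log2 fold change was −0.07, and with GC and length offsets 6 were called higher and 30 lower. C1QBP, a matrix protein needed for mitochondrial translation, had 344 and 351 CPM in siControl and 175 and 160.4 CPM in siNSUN2, a log2 fold change of −1.05 (adjusted p = 2.79e-07, SE 0.0486). It lay far lower in both siNSUN2 libraries. PPARGC1B, a coactivator of nuclear genes for mitochondria, had 8.97 and 8.93 CPM in siControl and 3.01 and 3.83 CPM in siNSUN2, a log2 fold change of −1.40 (adjusted p = 2.73e-05, SE 0.14). Of the 6 regulators tested 2 rose, 2 fell and 2 did not pass. GABPA, a subunit of a nuclear respiratory factor, rose by 0.18 (0.10 and not called without siControl replicate 1, adjusted p = 0.146), and the nuclear receptor ESRRA rose by 0.61, or 0.03 and not called with the offsets. NRF1, a transcription factor named here although the naming rule does not take it, fell by 0.23 (adjusted p = 0.0126).

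Of 21 genes of tRNA 5′ cutting and RNA modification, 3 rose and 11 fell, with a median log2 fold change of −0.41. RPUSD3, a pseudouridine synthase, fell by 1.16 and TRNT1, which adds the CCA end of tRNAs, fell by 0.87 on the log2 scale. The mitochondrial relatives of NSUN2 also fell, NSUN4 by 0.82 and NSUN3 by 0.41. NSUN3 missed the threshold with GC and length offsets. Among 12 further genes of the nucleoid and replication, 4 rose and 3 fell. LIG3, the ligase that seals mtDNA, had 21.5 and 22.0 CPM in siControl and 10.9 and 11.7 CPM in siNSUN2, and TK2, the thymidine kinase that supplies precursors for mtDNA, had 17.0 and 17.8 CPM in siControl and 31.4 and 29.5 CPM in siNSUN2. LIG3 was lower and TK2 higher in both siNSUN2 libraries, with log2 fold changes of −0.95 (adjusted p = 3.5e-06) and 0.80 (adjusted p = 5.19e-06). RRM2B, a subunit of ribonucleotide reductase, fell by 0.41.

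Of 5 further genes of mitochondrial RNA decay, 1 rose and 2 fell. ENDOG, a nuclease, rose by 0.44 and was called lower with the offsets at −0.32 (adjusted p = 0.0259), and without siControl replicate 1 it was 0.31 (adjusted p = 0.0507). PDE12 and ANGEL2 fell by 0.22 and 0.26 and missed the threshold with them. Of 20 genes of ribosome assembly and translation 3 rose and 5 fell, among the latter MALSU1, an assembly factor, by 0.71 and the elongation factor GUF1 by 0.48. For the mitochondrial ribosomal proteins the count was 7 higher and 42 lower of 75 tested, with a median log2 fold change of −0.21. Counts in this and the preceding paragraph are to be read against 27.1% higher and 25.5% lower of all genes tested.

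The nuclear genes for subunits of the same complexes were set beside the mtDNA-encoded ones, and their counts are to be read against the same 27.1% higher and 25.5% lower of all genes tested. Of the nuclear subunits of complex I 8 of 38 rose and 14 fell, with a median log2 fold change of −0.07. For complex III 3 of 9 rose and 4 fell, with a median near 0, and for complex IV 1 of 10 rose and 6 fell, with a median of −0.22. For complex V 2 of 16 rose and 7 fell, with a median of −0.19. The mtDNA-encoded mRNAs of the same complexes had medians of −0.01 for complex I (7 mRNAs), −0.42 for complex IV (3 mRNAs) and 0.25 for complex V (2 mRNAs, neither called). The value for complex V lies between MT-ATP6 at −0.30 and MT-ATP8 at 0.79 (SE 2.09). MT-ATP8 ran from −2.73 to 2.38 over the alternatives, so this median gives no direction. For complex III the only one, MT-CYB, stood at −0.32.

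The word ACCCTA was searched on the transcript strand only, because earlier results of these data had drawn attention to it. It was found in the longest annotated 3′ UTR of 3 of 38 nuclear genes searched (7.89%), where 21.4% of 12443 tested genes had it. PTCD2 held it at both places shown here, and GRSF1 and MTERF4 held it once each. Capitals mark the word, from GENCODE release 29.
PTCD2: aggtatgaaACCCTAttttaccat
PTCD2: ctagaggagACCCTAgtgcaactg
GRSF1: cacctaaacACCCTAaagatcatt
MTERF4: gcaaaagctACCCTAgggaagagc

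Among coding sequences, 9 of the 13 mitochondrial mRNAs held the word (69.2%), against 18.8% of 12581 tested genes and 4 of 39 nuclear members (10.3%: TFB1M, MTPAP, TSFM and FASTKD3). MT-ND5 held it 6 times and MT-ND1 3 times, and MT-ND6, MT-CO3, MT-ND4L and MT-ATP8 did not hold it. A place in MT-ND5, which fell, and a place in MT-ND1, which rose, are shown with the word in capitals.
MT-ND5: ccctcgttaACCCTAacaaaaaaa
MT-ND1: tatgaagtcACCCTAgccatcatt
The word was held by 5 of the 7 mitochondrial mRNAs that fell, by the 1 that rose and by 3 of the 5 that did not pass. A match describes the letters only, and none of these shares was adjusted for base composition or sequence length.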

How the data were processed

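Per the labels' protocols, poly(A) RNA of T24 cells was captured on beads and prepared with a stranded kit. The authors deposited raw counts per Ensembl gene, with a column for each library. HISAT2, HTSeq and hg19 were used per the submitters' processing notes, with versions, annotation and strand setting not given in the sources used here. Groups and replicate numbers came from the titles. From the counts, CPM, log2 fold changes, SE (from the F statistic) and adjusted p were computed in edgeR 4.0.16 (R 4.3.3; quasi-likelihood, robust, TMM, filterByExpr by group, two-sided, Benjamini-Hochberg over 16889 genes). Genes passing the filter held 99.96% of counts. The coefficient of variation between replicates was 0.14. GC content and length, known for 96.4% of the genes tested, and sequences were taken by gene ID from GENCODE release 29 (GRCh38), so no coordinates are given. The edgeR fit was tested on simulated counts in which 200 genes were changed. Far more were called in these data, so the simulation does not cover scaling or error rates here.

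The members and lists were chosen with earlier results of these data known. Library values are given for all mitochondrial mRNAs and for up to 5 genes of lowest p per nuclear role; of the further list, up to 3 called genes of lowest p per group are named, and NSUN3 and NSUN4. Alternatives were DESeq2 1.42.0, limma-voom (limma 3.58.1), other scalings and filters, thinned counts, GC and length offsets by loess, a block for the replicate number, leaving out each library, a threshold of 0.01, and, added after seeing the data, nuclear copies summed with mitochondrial genes. Same-numbered libraries deviated together only weakly (r = 0.156 over all genes tested, 0.0878 over the 9661 with average log2 CPM above 3), and nothing says that the numbers mark a shared batch.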

Additional observations from a re-analysis of the deposited data

How the results depend on the processing

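Of the 52 genes, 27 kept direction and call under every alternative fitted to them. These fits numbered 17 for the mitochondrial mRNAs and 18 for the nuclear genes. The 27 included 6 of the 8 called mitochondrial mRNAs and 21 of the 32 called nuclear genes. The threshold of 0.01 is not one of these fits and enters neither this count nor the next. Of 922 gene values under alternatives, 839 kept both, 34 lost the call and 22 gained it with the same sign, and 27 changed sign, of which 3 also lost the call and 2 gained it. The mitochondrial mRNAs called higher numbered 1 to 2 with 1 library left out (2 without siNSUN2 replicate 2) and 3 with GC and length offsets; those called lower numbered 6 to 7 and 5. The nuclear genes called higher numbered 2 to 4 with 1 library left out, and 2 under DESeq2, the offsets and a threshold of 0.01; those called lower numbered 25 to 31, and 28, 25 and 24. The further genes called higher numbered 6 with the offsets and 9 to 15 with 1 library left out; those called lower numbered 30 and 21 to 29. Over all genes leaving out 1 library gave 3720 to 4231 higher and 3750 to 4695 lower. With the replicate block 1 mitochondrial mRNA was called higher and 7 lower, 5 nuclear genes higher and 29 lower, 18 further genes higher and 25 lower, and 5027 of all genes higher and 4788 lower. The numbers do not pair the libraries by any label. The share of mitochondrial mRNA in siNSUN2 over siControl was −0.22 on the log2 scale, and −0.27 to −0.16 with 1 library left out. For the ratio of mitochondrial to nuclear member counts, the log2 difference of siNSUN2 over siControl was 0.095. It was 0.033 to 0.16 with 1 library left out.

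Sign changes of single genes were as follows, and their cause was not tested. Under the offsets MT-ND4 became 0.16, POLRMT −0.17, TEFM 0.12, POLG −0.36, FASTKD2 0.044, TBRG4 −0.23, TACO1 −0.15, MTIF3 0.085 and ENDOG −0.32. Without siControl replicate 1, MT-ND2 was −0.044, MT-ND4L −0.44 and MT-ATP8 −0.0055. Without siNSUN2 replicate 1, MT-ND2 was −0.018, MT-ND4L −0.77 and MT-ATP8 −2.73. Without siNSUN2 replicate 2, MT-ND4 was 0.10, MT-ATP6 0.021 and ELAC2 0.039. At the other end of the values with 1 library left out stood MT-ND2 at 0.11, MT-ND4 at −0.12, MT-ND4L at 0.51, MT-ATP6 at −0.69, MT-ATP8 at 2.38 and ELAC2 at −0.058. With library totals for scaling MT-ND4 was 0.0029 and ELAC2 0.0068, and with no filter 0.0094 and 0.012. MT-ND4L was −0.019 under DESeq2, −0.018 with its size factors, −0.056 under limma-voom, −0.0037 with a mean of at least 5 CPM, −0.063 with the replicate block and −0.0098 after thinning. MT-ND1 was 0.20 to 0.40 and MT-ND6 −1.49 to −1.20 over all alternatives. The shallowest library had 33633249 counts, and the lowest count of MT-ATP8, in that library, was 501.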

Other observations

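The ribosomal RNAs of mtDNA, which are not mRNAs but carry short A-rich ends, were also counted. MT-RNR1, the RNA of the small ribosomal subunit, had 822 and 841 CPM in siControl and 677 and 666 CPM in siNSUN2, a log2 fold change of −0.31 (adjusted p = 1.18e-04, SE 0.0386). MT-RNR2, that of the large subunit, had 4989 and 5039.6 CPM in siControl and 4649.6 and 4499 CPM in siNSUN2, a log2 fold change of −0.13 (adjusted p = 0.0292, SE 0.0435), and with GC and length offsets it was 0.07 (adjusted p = 0.0985). Both lay lower in each siNSUN2 library than in either siControl library.

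Mitochondrial tRNAs were scarce in these poly(A) libraries, with summed levels of 23.0 and 23.7 CPM in siControl and 26.5 and 20.1 CPM in siNSUN2, which overlap. Of the 22 tRNA genes 13 had at least 100 counts in all, and of the 12 of these that were tested the lowest unadjusted p of edgeR was 0.142, for MT-TS1. MT-TI, the isoleucine tRNA next to MT-ND1, had 0.118 and 0.287 CPM in siControl and 3.84 and 0.175 CPM in siNSUN2. MT-TL1, the leucine tRNA before MT-ND1, had 0 and 0.273 CPM in siControl and 2.25 and 0.0584 CPM in siNSUN2. In both, siNSUN2 replicate 1 alone stood high, and the other siNSUN2 library lay within the siControl range. That replicate was also the highest library for MT-TF (2.86 CPM), MT-TD (1.68 CPM), MT-TM (0.762 CPM), MT-TW and MT-TE. It was the lowest library for MT-TQ, MT-TY, MT-TS1 and MT-TP. That replicate was the deeper library of its group. In siControl the deeper library was likewise the higher for MT-TI, MT-TL1, MT-TF, MT-TD, MT-TM and MT-TE, but not for MT-TW. It was likewise the lower for MT-TQ, MT-TY and MT-TS1, but not for MT-TP. The cause was not tested.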
